A study of Mus musculus with 10 samples.

Results

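The Rab genes encode the largest branch of the Ras superfamily of small GTPases. Members were the protein-coding rows of the deposited table whose mouse symbol is Rab followed by a number, an optional letter and an optional digit, less 1 symbol that the rule leaves out. This gave 57 of the 27343 genes in the table, and 52 of the 57 passed the filter on low counts and were tested. The samples were 10 RNA libraries of whole hippocampus from wild-type C57BL/6J males aged 2 months. For 5 of them Visudyne, a photosensitizing form of verteporfin, was put into the cisterna magna and converted with red light of 689 nm through the skull, a procedure meant to ablate the meningeal lymphatic vessels. For the 5 controls vehicle took the same route, and the protocol describes the light step for both groups. The mice had the procedure again after 2 weeks, were put through the Morris water maze, a spatial learning test, after another 2 weeks, and were dissected 3 days after the maze. The state of the vessels was not analysed here, so the groups are named by what was injected. The comparison asks which Rab transcripts differed in the hippocampus of Visudyne mice that had performed the maze.

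A Rab protein switches between a GTP-bound form, which sits on a membrane through prenyl groups on its tail, and a GDP-bound form, which a carrier protein (GDI) holds in the cytosol. Exchange factors (GEFs) load GTP, GTPase-activating proteins (GAPs) end the active state, and effectors bind the active form to move, tether or fuse vesicles. Each Rab marks a particular compartment, from the endoplasmic reticulum and Golgi to synaptic vesicles, endosomes and lysosomes. Neurons depend on this traffic for transmitter release, for receptor recycling at synapses and for transport along axons.

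Total counts were 34548474 to 36956138 per library in Visudyne and 24752362 to 41073906 in vehicle. Levels are given in CPM, counts relative to library size, after scaling of the libraries with TMM factors, which assume that most genes do not differ. Of 8 marker genes of hippocampal neurons 8 were in the table and 0 were at 0 in any library. Their summed level was 734.3 to 1177 CPM in Visudyne and 772.4 to 917 CPM in vehicle. The summed level of 8 oligodendrocyte markers was 2180 to 2602 CPM in Visudyne and 2258 to 3038 CPM in vehicle, and that of 6 choroid plexus markers 22 to 412 and 21.9 to 32.5 CPM, with 1 marker at 0 in some library in each of these lists. By the test described below, 4 of 7 tested oligodendrocyte markers (57.1%) were called lower and 0 higher. Of all tested genes, 11.5% were called lower. After the GC correction described below 2 of the 7 were called lower, where 4.47% of all genes were called in either direction. Of 8 tested hippocampal neuron markers 2 (25%) were called lower before it. The 7 microglial markers summed to 191.1 to 228.7 CPM in Visudyne and 168.3 to 195.1 CPM in vehicle. Among these, 1 was called higher and 1 lower, and their median log2 fold change was -0.07. Of 4 tested choroid plexus markers 1 (25%) was called higher, against 8.98% of all tested genes, and their median was 1.90. The 5 endothelial markers summed to 89.9 to 101.9 CPM in Visudyne and 78.8 to 92.2 CPM in vehicle, with 1 called higher. The sums of 6 astrocyte markers were 4505 to 6037 and 4457 to 5101 CPM, with 0 called. Those of 5 thalamus or cortex markers were 90.4 to 109.1 and 84.1 to 120 CPM, with 1 called lower. The part of these cell types in the Rab values was not tested. In such bulk tissue, fewer cells of a type and less RNA per cell cannot be told apart. The slope of log2 CPM on the GC content of the transcripts was taken over all tested genes, relative to the mean of the 10 libraries. It was -0.0536 to 0.000794 per percentage point in Visudyne and -0.00203 to 0.0405 in vehicle. Results below are given beside this slope, whose part in them was not tested.

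Rab transcripts made up 0.426% ± 0.0167 of all counts in Visudyne and 0.427% ± 0.0148 in vehicle (SD, n = 5 each), before TMM scaling. After scaling, their summed level was 4589 ± 361.9 CPM in Visudyne and 3981 ± 230.7 CPM in vehicle. The ranges, 4169 to 5004 and 3578 to 4139 CPM, did not overlap, so the comparison of totals depends on the scaling. Levels of different genes were compared per kilobase of exon (CPM per kb). On that scale Rab6a, which serves traffic at the Golgi, stood first at 204.5 ± 21.6 in vehicle and Rab2a, which acts between endoplasmic reticulum and Golgi, second at 152.4 ± 17.3 CPM per kb (SD, n = 5). Rab6a and Rab2a together gave 37% ± 1.82 of the summed Rab level per kb in vehicle and 38.1% ± 0.875 in Visudyne. Rab10, which brings cargo to the cell surface, followed at 54.6 ± 5.58, then Rab11a of the recycling endosome at 52 ± 5.56, Rab6b, the copy of Rab6 enriched in neurons, at 44.9 ± 4.52 and Rab3c of synaptic vesicles at 42.3 ± 2.75 CPM per kb. Among the last 4 genes, neighbours in the order overlapped in range over the vehicle libraries, whereas the ranges of Rab6a and Rab2a, 167.4 to 221.7 and 122.5 to 166.9 CPM per kb, did not. Rab1a at 40.1 ± 3.06, Rab7, the Rab of late endosomes and lysosomes, at 30.5 ± 1.67, Rab5b at 28.1 ± 1.1 and Rab5a, both of early endosomes, at 27.8 ± 3 CPM per kb completed the first 10. At the other end, 5 members were not tested: Rab17, with 0 to 1 counts per library, Rab44, with 0 to 3, Rab19, with 0 to 4, Rab42, with 1 to 7, and Rab20, with 1 to 17. Rab43 was tested but had 0 to 120 counts per library, and its exons overlap those of Gm45140 on the same strand, so counting could split reads between them.

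**Figure D1:**
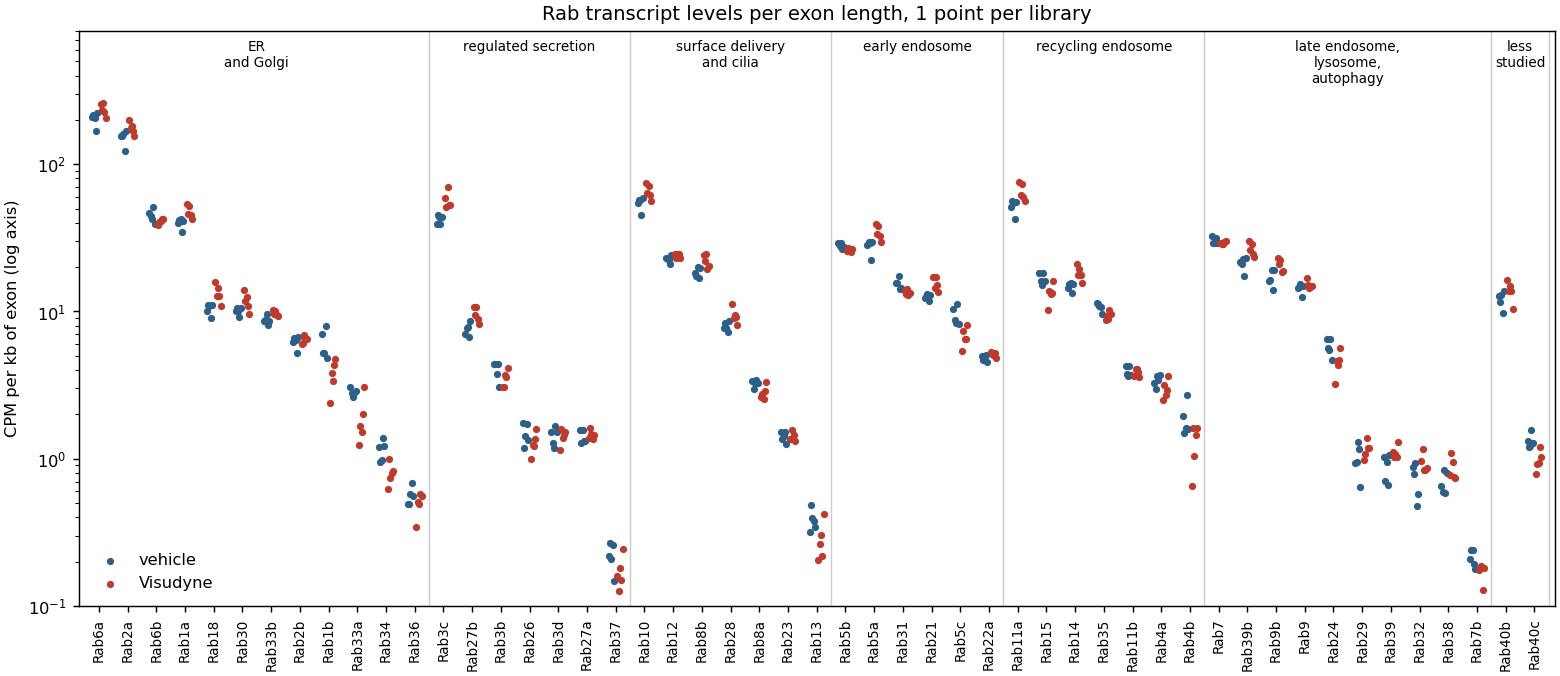
Level of 51 tested Rab genes in CPM per kb of exon (log axis), grouped by the compartment they serve and ordered by their vehicle mean, with 1 point per library (blue for 5 vehicle, red for 5 Visudyne libraries). Rab6a and Rab2a averaged 204.5 and 152.4 CPM per kb in vehicle, and Rab43, at 0 counts in 1 library, is left out of the log axis.

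Rab genes changed in both directions and by small amounts. Of 52 tested members, 11 were called higher and 7 lower in Visudyne at an adjusted p under 0.05, and 34 were not called (edgeR's quasi-likelihood test, Benjamini-Hochberg over all 15938 tested genes). The called members were 34.6% of those tested, against a background of 20.5% of all tested genes. In single directions these were 21.2% higher against a background of 8.98%, and 13.5% lower against 11.5%. The higher members were Rab3c, Rab21, Rab27b, Rab14, Rab39b, Rab18, Rab11a, Rab5a, Rab8b, Rab1a and Rab9b, at 1.2 to 1.35 times their vehicle level, and the lower ones Rab5c, Rab1b, Rab40c, Rab34, Rab15, Rab35 and Rab31, at 0.616 to 0.874 times. The median log2 fold change was 0.06 over the 52 members and 0.01 over all tested genes. The libraries of the groups did not overlap in CPM for 10 members, each of them called, or 19.2%, against a background of 12.5%. With total counts in place of TMM factors, which moved the median of all genes to -0.19, 1 member was called higher and 12 lower, while each of the 18 kept its direction. Of all 15938 tested genes, 196 were called higher and 3902 lower in that setting, or 25.7% in either direction.

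The calls went with base composition. The 11 members called higher had transcripts of 40% to 46.2% GC and the 7 called lower had 49.4% to 56.8%, with no overlap between these ranges. Of 16 tested members under 45% GC, 10 were called higher and 0 lower, and of 8 members at 55% or more, 0 were called higher and 4 lower. Their median log2 fold changes were 0.30 and -0.46. Over all tested genes, the median was 0.24 for the 4143 genes under 45% GC and -0.42 for the 3010 genes at 55% or more, and 23.9% of the former were called higher and 28.4% of the latter lower. Across the 52 members, which share the same 10 libraries, Pearson's r between GC content and log2 fold change was -0.63 and Spearman's rho -0.75, beside -0.60 and -0.68 across the 15829 tested genes with a known GC content. Genes are not independent replicates, so these are descriptions. A second fit was corrected for GC content by taking out the trend of each library (called GC correction below). After it 0 of the 52 members were called, against a background of 4.47%, and 11 had an unadjusted p under 0.05 (21.2%, against a background of 25.8%). The groups then did not overlap for 4 members, Rab3c, Rab21, Rab5c and Rab1b, or 7.69%, against a background of 7.47%. The median size of the log2 fold change of the members then went from 0.26 to 0.093, and that of all genes from 0.23 to 0.14. With the library slope entered as covariate 0 members were called, but so were 0 of all tested genes. In that fit Rab3c and Rab31 had an unadjusted p under 0.05 (3.85%, against a background of 6.48%). The slope was lower in Visudyne than in vehicle, except that Visudyne 5, at 0.000794, lay above vehicle 10, at -0.00203. Slope and group therefore cannot be told apart here. Both fits also take out any difference between the groups that follows GC content, so the lost calls do not show where the trend came from. The calls also depended on single libraries: 0 members were called without Visudyne 3, vehicle 6 or vehicle 9, and without Visudyne 5 there were 15 higher and 11 lower. The calls over all tested genes moved as well. They were 27 (0.17%) without Visudyne 3, 10 (0.06%) without vehicle 6, 309 (1.92%) without vehicle 9 and 5047 (31.5%) without Visudyne 5.

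**Figure D2:**
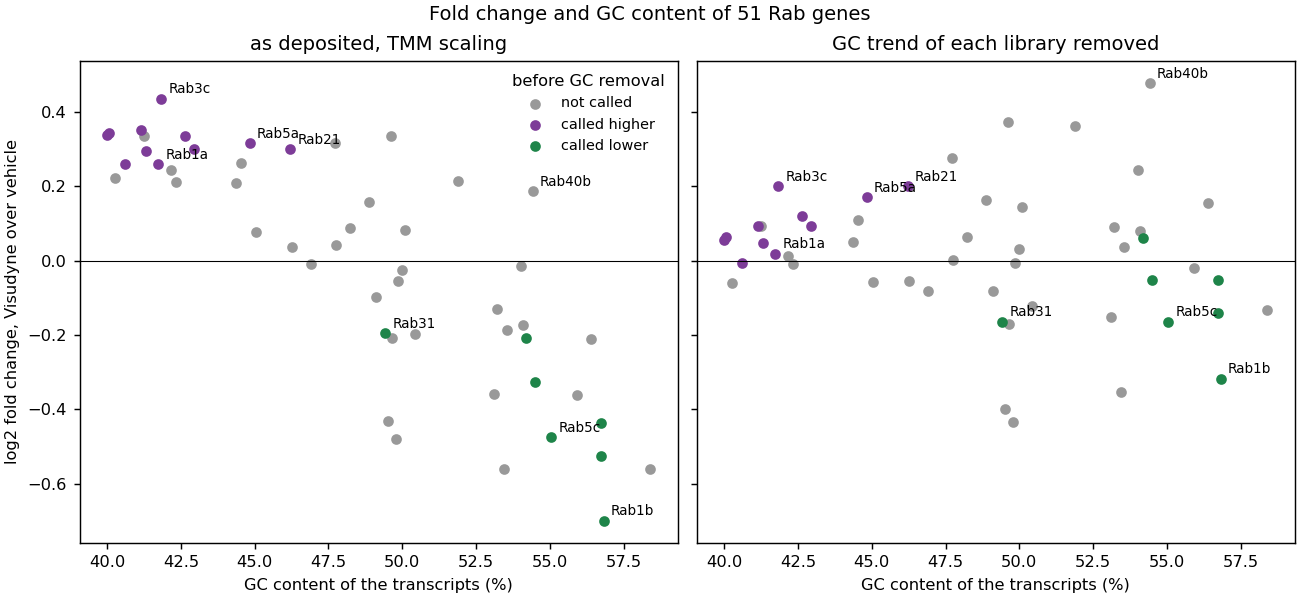
Log2 fold change (Visudyne over vehicle) of 51 tested Rab genes against the GC content of their transcripts in percent, before (left) and after (right) the GC trend of each library was removed. Purple points were called higher and green points lower before removal, and grey points were not called. The purple points lie between 40% and 46.2% GC, and after removal the fold changes of the same genes range from -0.01 to 0.20.

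Among Rabs of the endoplasmic reticulum and Golgi, 2 of 13 tested members were called higher and 2 lower, or 30.8%, against a background of 20.5%. Rab1a, which drives transport from the endoplasmic reticulum to the Golgi (GRCm38 chromosome 11, 20201432 to 20226856), stood at 205, 174, 199, 173 and 161 CPM in Visudyne 1 to 5 and at 153, 159, 161, 132 and 157 CPM in vehicle 6 to 10. The lowest Visudyne library was level with the highest vehicle library at this precision, with 161.1 against 161 CPM. Rab1a rose 1.2-fold (log2 fold change 0.26 with an SE of 0.079, edgeR adjusted p = 0.041), and after GC correction its log2 fold change was 0.02. Rab1b, which does the same step (chromosome 19, 5099205 to 5107072), stood at 5.43, 8.72, 7.63, 9.9 and 10.8 CPM in Visudyne and at 15.9, 12, 11.9, 18.2 and 11 CPM in vehicle. The groups did not overlap, and Visudyne 1 was the lowest and vehicle 9 the highest library. Rab1b fell to 0.616 of its vehicle level (log2 fold change -0.70 with an SE of 0.19, edgeR adjusted p = 0.03), and was at -0.32 after GC correction (adjusted p = 0.064) and at 0.04 with the slope covariate. Rab18, found on the endoplasmic reticulum and lipid droplets, stood at 108, 87.1, 99.2, 87.5 and 74.2 CPM in Visudyne and at 69.6, 75.5, 74.8, 62.2 and 75.6 CPM in vehicle, with Visudyne 5 inside the vehicle range. It rose 1.28-fold, and its log2 fold change went from 0.35 to 0.09 after GC correction. A noncoding transcript annotated within it on the same strand shares its exon sequence. Rab34, which acts in Golgi traffic and ciliogenesis, stood at 1.48, 2.39, 1.76, 1.92 and 1.96 CPM in Visudyne and at 2.85, 2.25, 2.36, 3.31 and 2.91 CPM in vehicle, where Visudyne 2 lay above the lowest vehicle libraries. It fell to 0.695 of its vehicle level, and its log2 fold change went from -0.52 to -0.14 after GC correction. None of the other 9 was called. The most abundant member, Rab6a, stood at 955, 877, 967, 847 and 772 CPM in Visudyne and at 785, 809, 769, 624 and 827 CPM in vehicle (log2 fold change 0.21, adjusted p = 0.093 by edgeR). Rab2a stood at 423, 375, 391, 358 and 332 CPM in Visudyne and at 333, 334, 341, 261 and 356 CPM in vehicle (log2 fold change 0.21, adjusted p = 0.1). In both, the lowest Visudyne library was Visudyne 5 and lay inside the vehicle range, and vehicle 9 was far below the other vehicle libraries. Rab6b stood at 195, 205, 206, 213 and 212 CPM in Visudyne and at 233, 225, 213, 259 and 199 CPM in vehicle, and the groups overlapped. Rab33b, known from Golgi traffic and autophagy, was at 34.5 ± 1.41 and 30.9 ± 2.01 CPM. Its copy Rab33a was at 1.44, 1.94, 1.76, 2.33 and 3.57 CPM in Visudyne and at 3.04 to 3.54 CPM in vehicle, so that Visudyne 5 lay above the vehicle libraries and the other 4 below. Rab30, of the Golgi, was at 113.5 ± 15.9 and 97.4 ± 5.39 CPM in Visudyne and vehicle, Rab2b at 26.6 ± 1.5 and 25.9 ± 2.41 CPM and Rab36 at 3.07 ± 0.569 and 3.46 ± 0.484 CPM.

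Of the 7 Rabs of regulated secretion, Rab3c and Rab27b were called higher and none lower, or 28.6%, against a background of 20.5%. Rab3c (chromosome 13, 110054187 to 110280996), which sits on synaptic vesicles, had the smallest p of the family. It stood at 705, 614, 848, 641 and 638 CPM in Visudyne and at 475, 543, 531, 473 and 527 CPM in vehicle. No libraries of the groups overlapped, and Visudyne 3 was the highest. Rab3c rose 1.35-fold (log2 fold change 0.44 with an SE of 0.089, edgeR adjusted p = 0.023). After GC correction it was at 578, 580, 758, 602 and 640 CPM in Visudyne and 532 to 574 CPM in vehicle, still without overlap, at a log2 fold change of 0.20 (adjusted p = 0.1), and it was at 0.27 with the slope covariate. Rab27b, which docks secretory granules and exosome-forming bodies at the membrane, stood at 115, 101, 115, 95 and 88 CPM in Visudyne and at 74.9, 82.1, 84.1, 72.1 and 91.9 CPM in vehicle. Visudyne 5 lay below vehicle 10. Rab27b rose 1.27-fold, and its log2 fold change went from 0.34 to 0.06 after GC correction. The other copies of Rab3 were not called: Rab3b was at 12.4 ± 1.62 and 14.2 ± 2.1 CPM and Rab3d at 5.95 ± 0.737 and 6.02 ± 0.837 CPM in Visudyne and vehicle. Rab26, linked to the clearance of synaptic vesicles, was at 3.66 ± 0.624 and 4.24 ± 0.694 CPM, with exons that overlap Traf7 on the same strand. Rab27a, at 5.64 ± 0.386 and 5.47 ± 0.583 CPM, and Rab37, at 0.915 ± 0.241 and 1.17 ± 0.253 CPM, were not called either.

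In the group of surface delivery and cilia, Rab8b was called higher and the other 6 were not called. The called share was 14.3%, against a background of 20.5%. Rab8b, which carries cargo from the Golgi to the plasma membrane, stood at 114, 104, 117, 91.4 and 96.9 CPM in Visudyne and at 86.4, 83, 94.5, 79.6 and 92.9 CPM in vehicle, and Visudyne 4 lay inside the vehicle range. Rab8b rose 1.2-fold, and its log2 fold change of 0.26 was -0.01 after GC correction. Rab8a, its close copy, stood at 12.2, 12.8, 12, 13.4 and 15.5 CPM in Visudyne and at 15.8, 13.9, 15.2, 16.1 and 15.2 CPM in vehicle, with a log2 fold change of -0.21 (adjusted p = 0.08 by edgeR). Rab10 stood at 263.5, 225, 249, 216 and 197 CPM in Visudyne and at 192, 200.4, 201, 158 and 208 CPM in vehicle, where Visudyne 5 lay inside the vehicle range (log2 fold change 0.26, adjusted p = 0.058). Rab28, of cilia, was at 42.6 ± 5.23 and 36 ± 2.62 CPM in Visudyne and vehicle (adjusted p = 0.057). Rab13, of cell junctions, was near the limit of detection, at 0.649 ± 0.199 and 0.881 ± 0.145 CPM. Rab12, which with Rab10 is a substrate of the kinase LRRK2, was at 72.9 ± 2.46 and 68.9 ± 3.66 CPM. Rab23, a regulator of hedgehog signalling, was at 11.7 ± 0.791 and 11.7 ± 0.891 CPM.

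Early endosomal Rabs had 4 of 6 tested members called, 2 in each direction, against 20.5% of all genes, and in each of the 4 the groups did not overlap, against 12.5%. After GC correction 0 of the 6 were called. Rab5a (chromosome 17, 53479234 to 53507680), which drives fusion of early endosomes, stood at 208, 176, 200, 172 and 157 CPM in Visudyne and at 150, 156, 154, 119 and 155 CPM in vehicle, where vehicle 9 was low. Rab5a rose 1.24-fold (log2 fold change 0.32 with an SE of 0.095, edgeR adjusted p = 0.039). Rab5c (chromosome 11, 100715009 to 100738215), a copy with the same task, stood at 11.9, 16.1, 14.4, 14.3 and 17.7 CPM in Visudyne and at 22.9, 19.1, 18.4, 24.8 and 18 CPM in vehicle. It fell to 0.72 of its vehicle level (log2 fold change -0.47 with an SE of 0.12, edgeR adjusted p = 0.028). The third copy, Rab5b, stood at 108, 113, 112, 107 and 112 CPM in Visudyne and at 123, 117, 123, 112 and 116 CPM in vehicle, and was not called. Rab21, which guides integrins through early endosomes (chromosome 10, 115287084 to 115315594), stood at 86.3, 73.1, 85.9, 76 and 68.1 CPM in Visudyne and at 62.8, 62.9, 66, 59.3 and 65.6 CPM in vehicle. Rab21 rose 1.23-fold (adjusted p = 0.027 by edgeR). It kept a log2 fold change of 0.20 of its 0.30 after GC correction (adjusted p = 0.052) and was the 1 member called, at an adjusted p of 0.048, when trends with GC content and length were removed together. That was 1 of 52 tested members, where 4.69% of all tested genes were called in that setting. Rab31, which acts between early endosomes and the Golgi, stood at 52.9, 50.1, 54.4, 49.7 and 50.9 CPM in Visudyne and at 59.7, 59.3, 66.8, 54.5 and 54.9 CPM in vehicle. The highest Visudyne library, at 54.41 CPM, lay just under the lowest vehicle library, at 54.54 CPM. Rab31 fell to 0.874 of its vehicle level, and at 49.4% GC its log2 fold change of -0.19 moved little, to -0.16, after GC correction (adjusted p = 0.11) and to -0.24 with the slope covariate. Rab22a, its close relative, was at 37 ± 1.31 and 34.8 ± 1.64 CPM and was not called.

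Recycling endosomal Rabs had 2 of 7 members called higher and 2 lower, or 57.1%, against a background of 20.5%. After GC correction 0 of the 7 were called. Rab11a, the defining Rab of this compartment (chromosome 9, 64715299 to 64737758), stood at 226, 185, 220, 180 and 169 CPM in Visudyne and at 152, 169, 164, 128 and 165 CPM in vehicle. Its lowest Visudyne library was at 169.4 CPM and its highest vehicle library at 168.6 CPM. Rab11a rose 1.26-fold, and its log2 fold change of 0.34 was 0.12 after GC correction. Rab14, which links Golgi and endosomes, stood at 285, 240, 263, 241 and 211 CPM in Visudyne and at 197, 207, 212, 181 and 210 CPM in vehicle, with Visudyne 5 a little under vehicle 8. It rose 1.23-fold. Rab15, which slows recycling in neurons, stood at 47.4, 63.2, 60.7, 61.4 and 73.9 CPM in Visudyne and at 83.6, 74, 69.6, 83.6 and 73.8 CPM in vehicle, and fell to 0.797 of its vehicle level. Rab35, of fast recycling from the plasma membrane, stood at 24.7, 26.2, 25.2, 28.8 and 27.2 CPM in Visudyne and at 32.4, 31.8, 30.9, 30.3 and 27 CPM in vehicle. In Rab15 Visudyne 5 and in Rab35 Visudyne 4 and Visudyne 5 lay above the lowest vehicle library. Rab35 fell to 0.866 of its vehicle level, but after GC correction its log2 fold change went from -0.21 to 0.06. Rab11b, the close copy of Rab11a, stood at 22.5, 25, 24.8, 23.7 and 21.9 CPM in Visudyne and at 26, 23, 22.3, 26 and 22.6 CPM in vehicle, with a log2 fold change of -0.02, and was not called. Rab4a, at 5.26 ± 0.802 and 5.99 ± 0.505 CPM, and Rab4b, at 2.51 ± 0.828 and 3.71 ± 0.988 CPM in Visudyne and vehicle, were not called either, and Rab4b shares exon sequence on the same strand with Gm21983.

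Among Rabs of late endosomes, lysosomes and autophagy, 2 of 10 were called higher and none lower, or 20%, near the background of 20.5%. Rab39b, an X-linked gene whose loss causes intellectual disability in people, stood at 102.5, 89.4, 98.1, 83.5 and 80.3 CPM in Visudyne and at 74.2, 71, 76.8, 58.8 and 78.6 CPM in vehicle, without overlap. It rose 1.26-fold. Rab9b, a copy of the Rab that returns receptors from late endosomes to the Golgi, rose from 67.2 ± 8.77 to 82.4 ± 8.28 CPM, with Visudyne 4 and Visudyne 5 inside the vehicle range. After GC correction the log2 fold changes of Rab39b and Rab9b went from 0.34 to 0.05 and from 0.29 to 0.05. Rab7, which brings cargo to lysosomes, was at 75.8, 75.2, 75.3, 77.9 and 78 CPM in Visudyne and at 85.6, 76.1, 76.4, 82.6 and 76.6 CPM in vehicle. Its log2 fold change was -0.06 (SE 0.052, adjusted p = 0.44 by edgeR) and it was not called. Rab24, of autophagy, was at 9.07 ± 1.78 and 11.6 ± 1.54 CPM (adjusted p = 0.076), and its log2 fold change went from -0.36 to -0.02 after GC correction. Rab29, which recruits LRRK2, was at 1.71 ± 0.223 and 1.47 ± 0.364 CPM, and Rab32 and Rab38, of lysosome-related organelles, at 2.17 ± 0.323 and 1.71 ± 0.463 CPM and at 1.36 ± 0.241 and 1.09 ± 0.183 CPM in Visudyne and vehicle. Rab9, Rab39 and Rab7b, at 26.6 ± 1.73, 3.29 ± 0.336 and 0.704 ± 0.195 CPM in Visudyne and 25.2 ± 1.91, 2.62 ± 0.549 and 0.981 ± 0.128 CPM in vehicle, were not called either. Of the less studied members, Rab40c, a subunit of ubiquitin ligases, stood at 2.42, 2.87, 2.87, 3.69 and 3.18 CPM in Visudyne and at 4.07, 3.73, 3.78, 4.83 and 3.94 CPM in vehicle, without overlap. It fell to 0.739 of its vehicle level, and its log2 fold change went from -0.44 to -0.05 after GC correction. Rab40b, of the same kind, was not called, at 27.8 ± 4.4 and 24.4 ± 3.14 CPM. At 54.4% GC it had a positive log2 fold change, 0.19, which was 0.48 after GC correction (adjusted p = 0.12 by edgeR) and -0.21 with the slope covariate. Its coding sequence has 57.5% GC and its 3′ untranslated region 38.6%, beside medians of 50.7% and 44.4% over the members. The part of this contrast in its corrected value was not tested.

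**Figure D3:**
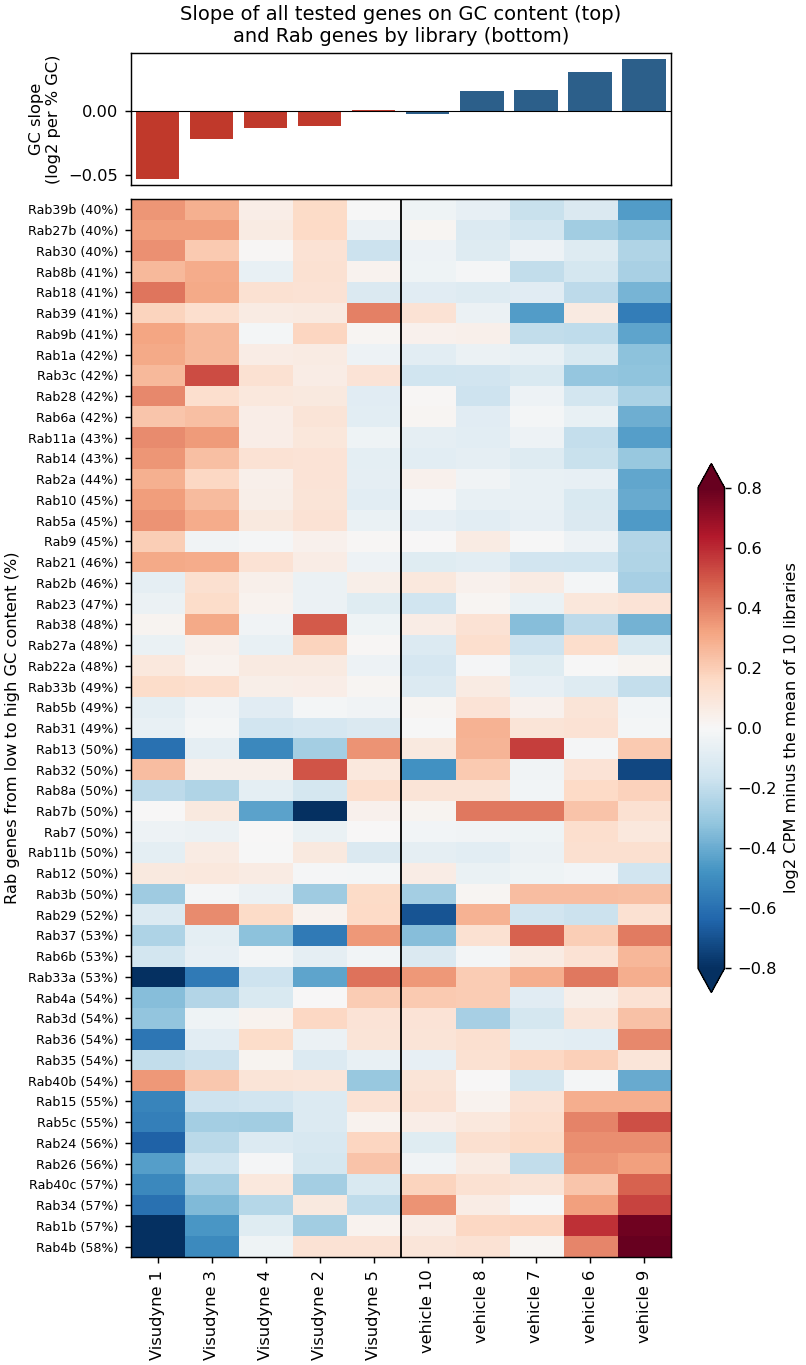
Centred log2 CPM of 51 tested Rab genes, ordered from low to high GC content, in each library (red above, blue below the mean of the 10 libraries), with the libraries ordered within each group by the slope of all tested genes on GC content (bars at the top, in log2 per percentage point of GC). The slopes run from -0.0536 in Visudyne 1 to 0.0405 in vehicle 9, and in both libraries most genes at the top and bottom of the map have opposite signs. Rab40b, at 0.34 in Visudyne 1 and -0.40 in vehicle 9, goes with the genes at the top.

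The called members also differed between libraries within the groups. The 11 members called higher had a mean centred log2 CPM of 0.33, 0.11, 0.31, 0.06 and -0.02 in Visudyne 1 to 5, where the slopes on GC content were -0.0536, -0.0119, -0.0222, -0.0135 and 0.000794. In vehicle 6 to 10 their mean was -0.18, -0.12, -0.07, -0.36 and -0.06, at slopes of 0.0302, 0.0161, 0.0156, 0.0405 and -0.00203. The libraries with the lowest and highest slope in each group had the highest and lowest of these means, while Visudyne 2 and Visudyne 4 stood in the opposite order. All 11 members were lowest of the 10 libraries in vehicle 9. The 7 members called lower had means of -0.48, -0.13, -0.25, -0.11 and -0.05 in Visudyne and of 0.31, 0.11, 0.12, 0.38 and 0.10 in vehicle. Because the members were chosen for their call in these libraries, the means are a description.

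Several Rabs come as close copies that encode nearly the same protein from different codons, and some of these copies differed in direction or in call. Translated from GENCODE M21 transcripts, Rab1a and Rab1b share 186 of 201 aligned residues (92.5%), Rab5a and Rab5c 189 of 215 (87.9%) and Rab11a and Rab11b 196 of 216 (90.7%). The third codon position is G or C in 45.5% of codons of Rab1a and 68.7% of Rab1b, in 31.6% of Rab5a and 64.3% of Rab5c, and in 39.8% of Rab11a and 67.9% of Rab11b. It was also lower in Rab8b than in Rab8a, at 52.2% and 70.05%, and in Rab3c than in Rab3d, at 58.7% and 72.6%. In the other pairs examined the copy called higher had the larger share, with 50.2% in Rab9b and 45.3% in Rab9, and 59.6% in Rab39b and 54.4% in Rab39. The stretches below show the codon differences of Rab1, Rab5 and Rab11 in the 90 coding bases around the phosphate-binding loop. This loop is the part of the protein that holds the nucleotide. These 3 of the 7 pairs examined are shown because the copies make the most alike proteins while their transcripts differ in GC content, by 15.1 percentage points for Rab1, 10.2 for Rab5 and 7.35 for Rab11. Capitals mark the bases that differ between the copies of a pair. Positions count from the first base of the start codon, and the stretches cover coding bases 25 to 114 of Rab1a and Rab1b, 61 to 150 of Rab5a, 64 to 153 of Rab5c, and 34 to 123 of Rab11a and Rab11b.
Rab1a: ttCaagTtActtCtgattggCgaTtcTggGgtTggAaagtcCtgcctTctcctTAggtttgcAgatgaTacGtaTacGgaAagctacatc
Rab1b: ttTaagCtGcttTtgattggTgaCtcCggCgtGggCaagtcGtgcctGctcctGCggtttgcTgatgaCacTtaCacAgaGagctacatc
Rab5a: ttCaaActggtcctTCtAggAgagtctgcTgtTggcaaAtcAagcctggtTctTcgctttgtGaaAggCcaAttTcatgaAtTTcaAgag
Rab5c: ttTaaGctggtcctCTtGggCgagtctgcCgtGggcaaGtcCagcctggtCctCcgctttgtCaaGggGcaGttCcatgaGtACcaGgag
Rab11a: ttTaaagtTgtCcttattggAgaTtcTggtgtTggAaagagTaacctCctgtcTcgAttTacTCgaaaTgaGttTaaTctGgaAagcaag
Rab11b: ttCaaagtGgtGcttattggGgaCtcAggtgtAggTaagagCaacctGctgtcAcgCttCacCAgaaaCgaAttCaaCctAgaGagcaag

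In these windows 20 bases in 19 codons differ between Rab1a and Rab1b, and all 19 codons keep the amino acid. Of the 21 differing bases between Rab5a and Rab5c, 19 are at the third codon position, and 18 of the 19 differing codons keep the amino acid. Between Rab11a and Rab11b 21 codons differ and 21 keep the amino acid. The differing bases are G or C in 7 cases in Rab1a and 14 in Rab1b, in 4 cases in Rab5a and 18 in Rab5c, and in 5 cases in Rab11a and 14 in Rab11b. In the same window of the other pairs examined, GC was 57.8% in both Rab8b and Rab8a, and 44.4% in Rab9b against 34.4% in Rab9. It was 60% in Rab39b and 63.3% in Rab39, and 45.6% in Rab3c and 55.6% in Rab3d. Across the 52 tested members the Spearman correlation with the log2 fold change was -0.53 for the GC content of the third codon position and -0.66 for that of the 3′ untranslated region (51 members), beside -0.51 and -0.65 across 13849 and 13321 tested protein-coding genes. In promoters the ranges overlapped. The window from 250 bases before to 50 bases after the start (RefSeq, GRCm38.p6, matched for 42 of the 52) had a median GC content of 63.7% (35.7% to 70.3%) for 9 members called higher and 63.3% (58% to 76.3%) for 7 called lower.

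**Figure D4:**
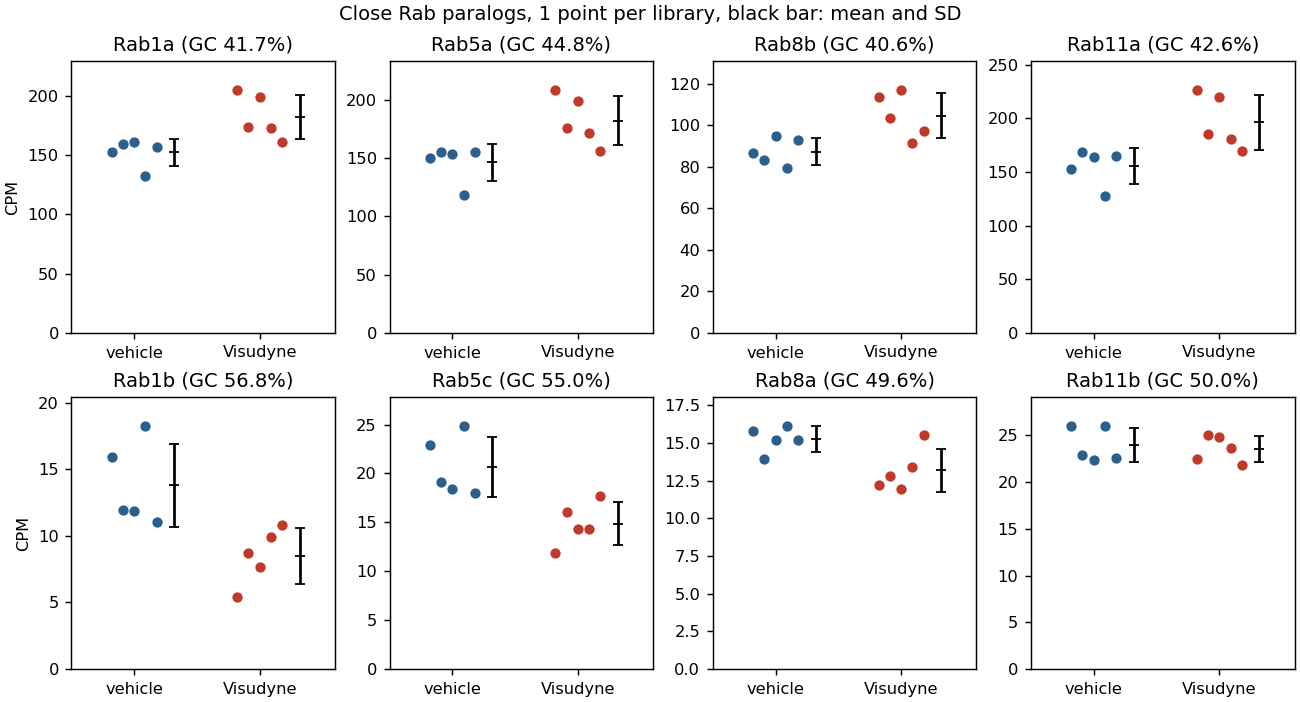
CPM of 4 pairs of close Rab copies, the copy with less GC in the top row and the one with more in the bottom row, with 1 point per library and the mean with its SD (n = 5) as a black bar. The top genes were each called higher in Visudyne, while below them Rab1b and Rab5c were called lower and Rab8a and Rab11b were not called.

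A ratio between copies within a library does not depend on the scaling of the libraries. The level per kb of Rab1a over that of Rab1b, as a log2 ratio, was 4.49, 3.58, 3.96, 3.38 and 3.16 in Visudyne 1 to 5 and 2.52, 2.99, 3.02, 2.12 and 3.09 in vehicle 6 to 10. The groups did not overlap, and the means of 3.71 ± 0.53 and 2.75 ± 0.417 (SD, n = 5 each) differed by 0.97. For Rab5a over Rab5c the ratio was 2.87, 2.19, 2.53, 2.32 and 1.88 in Visudyne and 1.45, 1.76, 1.79, 0.99 and 1.84 in vehicle, a difference of 0.79 without overlap. Rab8b over Rab8a, Rab11a over Rab11b, Rab5a over Rab5b and Rab22a over Rab31 did not overlap either, at differences of 0.47, 0.35, 0.41 and 0.28. Of 18 pairs compared, 6 were without overlap, and in 15 the copy with the lower GC content was the one whose share was larger in Visudyne. No such counts were made for pairs of other genes. Over all tested genes Spearman's rho between GC content and log2 fold change was -0.68, so the counts do not set Rab copies apart. After GC correction, the difference was smaller in 15 of the 18 pairs, at 0.34 for Rab1a over Rab1b and 0.09 for Rab11a over Rab11b, and 2 pairs stayed without overlap, Rab5a over Rab5c at 0.34 and Rab5a over Rab5b at 0.25. These ratios were not tested, and the pairs with Rab5a share that gene, as do those with Rab3c.

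**Figure D5:**
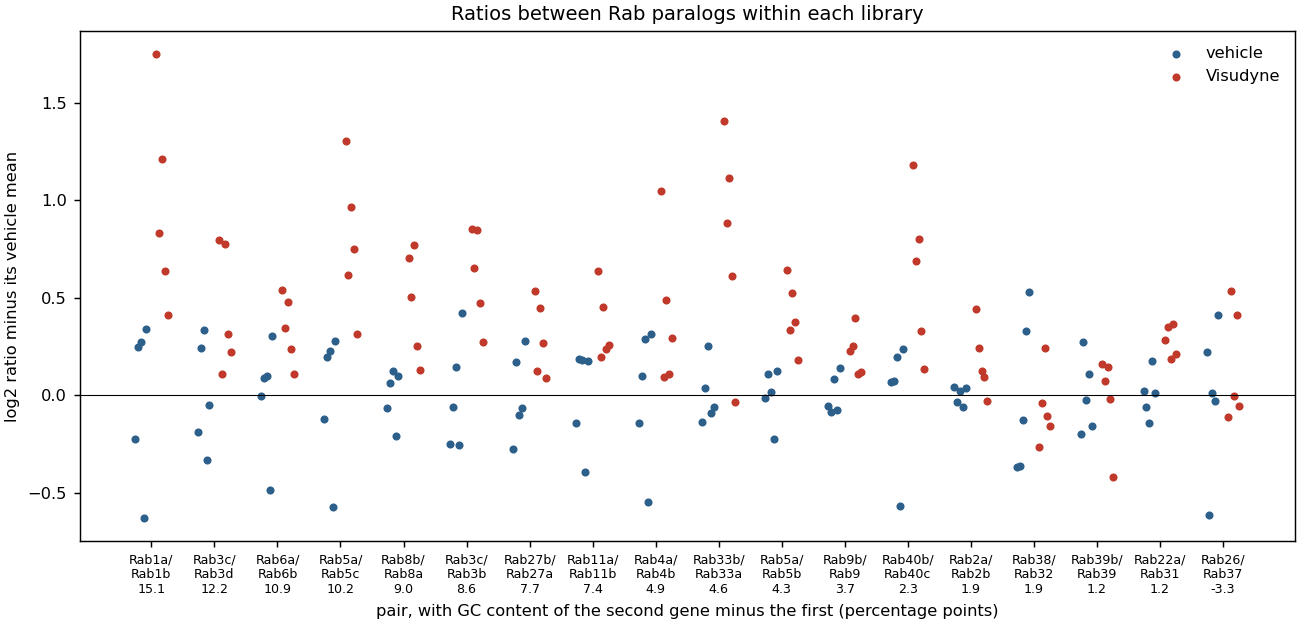
Log2 ratio of the levels per kb of 18 pairs of Rab copies in each library, minus the mean ratio in vehicle, with pairs ordered by how much more GC the second gene has (percentage points under each pair). Blue points are 5 vehicle and red points 5 Visudyne libraries. For Rab1a over Rab1b, with a GC difference of 15.1, the groups differ by 0.97.

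The regulators of Rab proteins also changed in both directions. Of 46 tested exchange factors, 3 were called higher and 11 lower, and 32 were not called, with a median log2 fold change of -0.13. The called share was 30.4%, against a background of 20.5% (8.98% higher and 11.5% lower). After GC correction 2 were called higher and 1 lower, where the background was 4.47%. Trappc3, a core subunit of the TRAPP complexes that act on Rab1 and Rab11, fell from 17.1 ± 1.5 to 12.5 ± 1.15 CPM (SD, n = 5 each), and Dennd4c, which acts on Rab10, rose from 27.8 ± 1.68 to 35.1 ± 2.49 CPM. Both were also called after GC correction, at log2 fold changes of -0.25 and 0.21 (adjusted p = 0.043 for each by edgeR). Rin1, which acts on Rab5, fell to 0.758 of its vehicle level and was at a log2 fold change of 0.05 after GC correction, and Sbf1, another DENN-domain protein, fell to 0.52, at -0.52 with the trend removed (adjusted p = 0.052). Of 36 GTPase-activating proteins, 6 were called higher and 10 lower, with a median of -0.15. This share of 44.4% stands beside the same background of 20.5%, and after GC correction 1 was called higher and 1 lower, beside 4.47% of all genes. Rab3gap2, a subunit of the enzyme that switches off Rab3 and also activates Rab18, rose from 39.2 ± 1.35 to 47.1 ± 2.83 CPM without overlap between the groups, and its log2 fold change was 0.27, and 0.25 after GC correction, where it was called (adjusted p = 0.028). Tbc1d10a fell from 1.33 ± 0.484 to 0.52 ± 0.189 CPM and was called in both settings, at -1.35 and -0.88. Tbc1d15, which acts on Rab7, rose 1.32-fold, and Tbc1d22a fell to 0.628 of its vehicle level, and neither was called after GC correction.

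For the GDI and prenylation genes, 1 of 6 tested was called higher and 1 lower, or 33.3%, against the background of 20.5%. Rabggta, the alpha subunit of the enzyme that attaches the prenyl groups, fell from 5.71 ± 1.18 to 3.51 ± 0.708 CPM, and Chm, the escort protein that presents Rabs to it, rose from 141.7 ± 15.3 to 176.1 ± 19.5 CPM. Their transcripts have 56.6% and 38% GC, and after GC correction their log2 fold changes went from -0.70 to -0.32 and from 0.31 to -0.01, neither of them called. Chml, the second escort protein, was at 11.6 ± 1.38 and 9.36 ± 1.23 CPM in Visudyne and vehicle, and was not called (adjusted p = 0.059 by edgeR). Of 41 effectors, 6 were called higher and 4 lower, or 24.4% against the background of 20.5%, with a median of -0.03 and 0 calls after GC correction. Bicd1, a dynein adaptor for Rab6, rose 1.31-fold, while Rilpl1, an effector of LRRK2-phosphorylated Rabs, fell to 0.805, Rph3a, rabphilin, to 0.717 and Golga2, a Golgi tether, to 0.737 of the vehicle level. None of the 4 genes of the LRRK2 pathway was called (0%, against the background of 20.5%), a list too short to compare with that share. Lrrk2 was at 56.6 ± 2.59 and 56.3 ± 6.92 CPM in Visudyne and vehicle. The Arf and Arl genes, the other large family of traffic GTPases, had 4 of 24 tested members called higher and 1 lower, or 20.8%, near the background of 20.5%, with a median of 0.01. Arl8b, which moves lysosomes along microtubules, rose 1.2-fold, Arl5a 1.26-fold and Arl4a 1.27-fold, and Arl2, a tubulin-folding regulator, fell to 0.591. After GC correction 0 of the 24 were called.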

How the data were processed

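Hippocampal total RNA was sequenced from 10 stranded libraries, as the labels' protocols state. What the authors deposited is 1 table of estimated counts per gene, given as whole numbers. FastQC and Salmon were run on build mm10, per the submitters' processing notes. Which versions and annotation served was not stated there. Salmon divides reads among similar transcripts, so values of close copies depend on that step. All 10 columns were used as they stand. Symbols, positions, exon lengths and GC content (over a gene's transcripts) came from GENCODE M21 on GRCm38, which held 27053 of 27343 identifiers.

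The groups (n = 5 each) were compared with edgeR 4.0.16 in R 4.3.3 (filterByExpr, TMM, quasi-likelihood test, two-sided, no covariate). Calls required an adjusted p under 0.05 (Benjamini-Hochberg, over all 15938 tested genes). The standard error is the log2 fold change divided by the root of F. The GC trend was removed with a loess fit (span 0.3) of centred log2 CPM (prior count 2) per library, entered as offsets. Alternatives used other size factors and filters, DESeq2 1.42.0, limma 3.58.1 (voom), sva 3.50.0, GC and length settings, and each library left out. Libraries of 1 group differed by more than sampling noise (chi-square per degree of freedom at least 13.3). The labels do not state that each library is a separate mouse, and p-values measure the spread between these libraries. The edgeR test was run on simulated counts with a fixed dispersion, no GC trend and larger changes than the called members had. That run therefore does not bear on the reliability of the calls here. Members, gene lists and alternatives were chosen with earlier results of these data known. Any member may be named. Values in every library are given for called members (up to 10 in each direction, by p), for the 6 most abundant per length and for copies described together. Other lists are represented by up to 4 tested genes with the smallest p. One member left out by the rule and 1 gene of another list are not reported here.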

Additional observations from a re-analysis of the deposited data

Results flagged for a closer look

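In 104 groups of 5 libraries (52 tested Rab genes in each treatment), 1 library stood far from the other 4 by Dixon's ratio in 5 cases, where chance flags about 1 group in 20. Vehicle 9 was low for Rab5a, at 119 CPM against 150 to 155 CPM in the other vehicle libraries, for Rab6a, at 624 CPM against 769 to 827 CPM, and for Rab2a, at 261 CPM against 333 to 356 CPM. These 3 genes have transcripts of 42.3% to 44.8% GC, and vehicle 9 has the most positive slope on GC content, 0.0405. Rab9 was high in Visudyne 1, at 29.6 CPM against 25.4 to 26.4 CPM. Rab43 was high in vehicle 10, at 2.91 CPM against 0 to 0.276 CPM in the other vehicle libraries. In Visudyne it ran from 0.0314 CPM in Visudyne 1 to 3.55 CPM in Visudyne 4.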

How the results depend on the processing

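No paired analysis was possible because the replicate numbers of the groups do not overlap (1 to 5 and 6 to 10). The 11 higher and 7 lower Rab calls became 1 and 12 with total counts only, 6 and 2 without a filter on low counts, 0 and 0 with 1 surrogate variable, after GC correction and with the slope covariate, and 1 and 0 after correction for GC and length. Without 1 library they ranged from 0 to 15 higher and 0 to 11 lower: without Visudyne 1, 2 and 4 they were 2 and 1, 5 and 3, and 5 and 2, and without vehicle 7 and 8 they were 2 and 3, and 9 and 4. Of all tested genes, 6.94%, 11.25% and 6.96% were called without Visudyne 1, 2 and 4, and 9.67% and 13.6% without vehicle 7 and 8. The 3261 genes called in the whole table became 2075 without the filter, 1 with the surrogate variable, 712 and 748 after correction for GC and for GC and length, 0 with the slope covariate (1032 had an unadjusted p under 0.05 there, and 0 were called by edgeR), and 10 to 5047 without 1 library. DESeq2 called 13 members higher and 9 lower and limma-voom 11 and 7. Of all tested genes DESeq2 called 4480 (28.1%) and limma-voom 3421 (21.5%), and 4098 (25.7%) were called with total counts only. The members' median log2 fold change, 0.06, was -0.14 with total counts and 0.02 to 0.07 in the other settings. Signs turned for Rab8b (-0.0071 and -0.0042), Rab35 (0.060 and 0.071), Rin1 (0.054 and 0.057), Chm (-0.014 and -0.019) and Rilpl1 (0.12 and 0.13) after correction for GC and for GC and length, and with the slope covariate for Rab1b (0.037), Rab15 (0.020), Rab9b (-0.00067), Sbf1 (0.067), Chm (-0.0015) and Arl2 (0.016). The cause was not tested. In the other alternatives run (scaling, filters, tools, the surrogate variable and each library left out), the 18 called members kept their direction. The filter on low counts kept 5 members, with at most 17 counts in any library, out of the tests.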
